A study of Arabidopsis thaliana with 2 samples.

Results

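The SQUAMOSA promoter-binding-like (SPL) factors that carry no target site for miR156 were followed in seedlings of Arabidopsis thaliana, comparing wild-type plants with ago1-36 plants, which carry a mutant allele of ARGONAUTE1 (AGO1). They are SPL1 (AT2G47070), SPL7 (AT5G18830), SPL8 (AT1G02065), SPL12 (AT3G60030), SPL14 (AT1G20980) and AT1G76580, called SPL16 here although the RefSeq annotation gives it no symbol. The rule that picks them is a list of gene identifiers and uses no measured value, although it was drawn up with earlier results of these data known. All 6 were among the 11666 genes of the deposited table. Both groups were seedlings collected at 12 days from Murashige and Skoog plates with 3% sucrose, at 23 °C under 16 h of light and 8 h of dark, and the labels name no organ beyond seedlings. Each genotype was represented by 1 library, of about 13670000 reads for wild-type and 13590000 for ago1-36. There is thus no replicate against which to check a difference, no p-value is given, and higher or lower refers to these 2 libraries only.

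SPL proteins share a zinc-binding SBP domain that recognises DNA with a GTAC core. One branch of the family is held down by miR156, which AGO1 loads and guides to the transcripts, and the fall of miR156 with age lets these factors drive the change from juvenile to adult growth. The branch without the site works apart from that timer. SPL7 is the main activator of the response to copper deficiency, SPL8 acts in pollen sac formation and gibberellin responses, and SPL1 and SPL12 support heat tolerance of the inflorescence. SPL14, also called FBR6, affects plant architecture and sensitivity to the fungal toxin fumonisin B1, and is the closest relative of SPL16.

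The label was checked against sequence first. The mature miR156a and, for comparison, the best window of SPL9 (a classic target) and of each of the 6 genes are printed 5′ to 3′ because they show what the genes lack. In the microRNA the capitals mark the seed, bases 2 to 8, and in the windows they mark bases that pair with miR156a.
miR156a: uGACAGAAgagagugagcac
full complement of miR156a: gtgctcactctcttctgtca
SPL9: GTGCTCtCTCTCTTCTGTCA
SPL8: cacCTCACcCTCTaCgGTCA
SPL12: GTGaTCAggaTCTaCTGTCt
SPL1: aTaCatACTCTtcTCTaTCA
SPL7: GTGCTtACTCaacTgTGTgt
SPL16: aacCaCACTggCTTgTGTCA
SPL14: GTcaTCAtcaTCTTgTGcCt
The best window had 6 mismatches of 20 bases in SPL8 and SPL12, 7 in SPL1, SPL7 and SPL16, and 8 in SPL14, with G:U pairs counted as mismatches. The SPL1 window lies in the 5′ UTR (chr2:19336787-19336806), and those of SPL8 (chr1:365814-365833), SPL12 (chr3:22168478-22168497), SPL14 (chr1:7328720-7328739) and SPL16 (chr1:28734679-28734698) lie in coding sequence. The SPL7 window is coding and spans an intron (chr5:6277597-6277689), and that of SPL9 is coding (chr2:17589066-17589085). The best windows of the 11 SPL genes listed as targets had 1 to 3 mismatches. Across 27440 protein-coding genes of the RefSeq annotation (TAIR10.1), 13 genes (0.0474%) held a window with 3 mismatches or fewer. A window with 6 mismatches or fewer occurred in 8.12% of them and one with 8 or fewer in 77.5%. The label therefore held in the annotated transcripts, and no window of the 6 came near those of the targets.

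The 6 genes are spread over 4 chromosomes in TAIR10.1. SPL8 lies at chr1:365165-367443, SPL14 at chr1:7324471-7329441 and SPL16 at chr1:28734207-28738967. SPL1 lies at chr2:19336653-19340869, SPL12 at chr3:22165580-22169984 on the minus strand and SPL7 at chr5:6275895-6280681. SPL8 is the small member, with 1002 coding bases against 2457 to 3108 in the others. SPL1 and SPL12 matched at 79.7% of aligned coding bases and SPL14 and SPL16 at 80.3%, whereas other pairs of the large members lay between 61.4% and 64.1%. The longest run of identical transcript bases was 41 for SPL1 and SPL12 and 91 for SPL14 and SPL16, and reads inside such a run cannot be assigned by sequence. SPL8 overlaps AT1G02067 on the opposite strand, and the use of strand in counting is not given in the sources used here.

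AGO1 itself stood at 48.6 RPKM in wild-type against 5.59 in ago1-36, 8.70-fold lower, which goes with the labels. RPKM scales reads by gene length and by the size of the library, so levels of different genes can be compared as far as the lengths used hold. The length implied by reads and RPKM can differ from the annotation, at 3148 against 3634 exon bases for SPL12. The intervals given below for ratios between genes do not cover this. Of the seedling markers, the 4 leaf genes were all lower in ago1-36, 2 of them by at least 2-fold, and summed to 8501 RPKM in wild-type against 4748 in ago1-36. The 3 root hair markers in the table were at least 2-fold lower and summed to 28.1 and 3.97 RPKM. Of all genes that reached 1 RPKM in either library, 51.5% were lower in ago1-36 and 8.38% at least 2-fold lower. The seed storage genes CRA1 and CRC summed to 0.367 and 52.3 RPKM. Of 4 flower identity genes, SEP3 alone was in the table, with 8 reads in wild-type and 1 in ago1-36. In seedlings sampled in bulk, fewer cells of a type and less RNA per cell cannot be told apart.

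The RPKM ratios of the factors without a site, ago1-36 over wild-type, ran from 0.786 to 2.50, in both directions. SPL1, SPL8, SPL14 and SPL16 had a higher RPKM in ago1-36, and SPL7 and SPL12 a lower one. Differences were scored as log2 of RPKM plus 1 in ago1-36 over RPKM plus 1 in wild-type, with 2-fold as the mark. A gene was kept if either library reached 1 RPKM, which left 11373 genes. All 6 genes passed that filter, each in both libraries. SPL14 alone was at least 2-fold higher and none was at least 2-fold lower, against 19.6% and 8.38% of all kept genes. The median of the 6 was 0.77 on this scale, beside -0.04 for the kept genes together. Of the kept genes past the mark 70.0% were higher, a share that is 55.7% by the log2 fold change in the authors' deposited table. A higher RPKM was found in 48.5% of kept genes, so 4 of 6 is near the background.

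SPL14 measured 19.8 RPKM in wild-type (1087 reads) against 42.1 in ago1-36 (2295 reads). Its RPKM ratio was 2.12, with a 95% counting interval of 1.98 to 2.28 that covers read sampling and nothing else. The interval spans the 2-fold mark, so this factor of architecture and toxin response sits at the mark rather than beyond it. By the log2 fold change in the authors' deposited table SPL14, at 0.90, falls under the mark and SPL8, at 1.11, passes it instead. SPL16, its closest relative, measured 4.82 RPKM in wild-type (243 reads) against 8.52 in ago1-36 (427 reads). Its ratio was 1.77 (95% counting interval 1.51 to 2.08), which overlaps that of SPL14. Both members of this pair were thus higher in ago1-36 by similar factors, and SPL14 stood 4.11-fold above SPL16 in RPKM in wild-type (95% counting interval 3.57 to 4.74) and 4.94-fold in ago1-36 (4.45 to 5.49).

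The other related pair parted ways. SPL1, a factor of reproductive heat tolerance, measured 35.2 RPKM in wild-type (1644 reads) against 65.3 in ago1-36 (3029 reads). The ratio was 1.85 (95% counting interval 1.74 to 1.97), under the 2-fold mark. SPL12, which shares that role, measured 17.1 RPKM in wild-type (736 reads) against 15.2 in ago1-36 (652 reads). Its ratio was 0.891 (95% counting interval 0.801 to 0.991), so the upper limit lies just under 1. SPL1 exceeded SPL12 in RPKM by 2.06-fold in wild-type (95% counting interval 1.89 to 2.25) and by 4.29-fold in ago1-36 (3.94 to 4.67), and these intervals do not overlap. Whether the gap would recur between replicate samples was not tested.

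SPL7, the copper regulator, was the lowest of the 6 by ratio. It measured 11.1 RPKM in wild-type (453 reads) against 8.72 in ago1-36 (354 reads), a ratio of 0.786 (95% counting interval 0.682 to 0.905). SPL8, the anther factor, was the least abundant, at 1.06 RPKM in wild-type (29 reads) against 2.64 in ago1-36 (72 reads). Its plain ratio of 2.50 was the highest of the 6 but had the widest counting interval, 1.60 to 3.99. With 1 added to each value its log2 ratio was 0.82, under the mark, so the call for SPL8 depends on the added constant. It passes, at 1.01, when libraries are scaled to a sum of 1000000, which reduces the weight of the added 1. On the plain RPKM ratio, 2 of 6 genes reached 2, against 23.9% of kept genes.

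**Figure D1:**
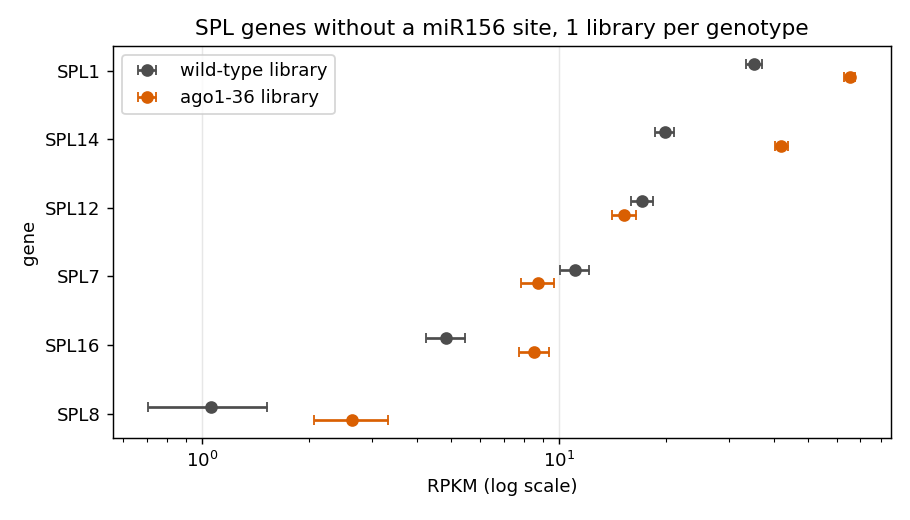
RPKM of the 6 SPL genes without a miR156 site (vertical axis) on a log horizontal axis, in the wild-type library (grey) and the ago1-36 library (orange), with 95% exact Poisson counting intervals as bars. SPL1 and SPL14 are the highest in both libraries and move right, SPL12 and SPL7 move slightly left, and SPL8 stays lowest at 1.06 and 2.64 RPKM.

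The order of levels per length was the same in both libraries, namely SPL1, SPL14, SPL12, SPL7, SPL16 and SPL8. Not every step of that order was beyond counting error. SPL7 was 2.30-fold above SPL16 in wild-type (95% counting interval 1.96 to 2.70) and 1.02-fold in ago1-36 (0.886 to 1.18), where these neighbours did not differ beyond it. SPL14 and SPL12 were close in wild-type, at a ratio of 1.16 (1.05 to 1.27), and apart in ago1-36, at 2.76 (2.53 to 3.02). Against all kept genes, SPL14 stood above 63.2% of them in wild-type and 76.9% in ago1-36, while SPL8 stood above 6.68% and 12.4%. SPL1 and SPL14 together made up 61.8% of the summed RPKM of the 6 genes in wild-type and 75.4% in ago1-36.

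**Figure D2:**
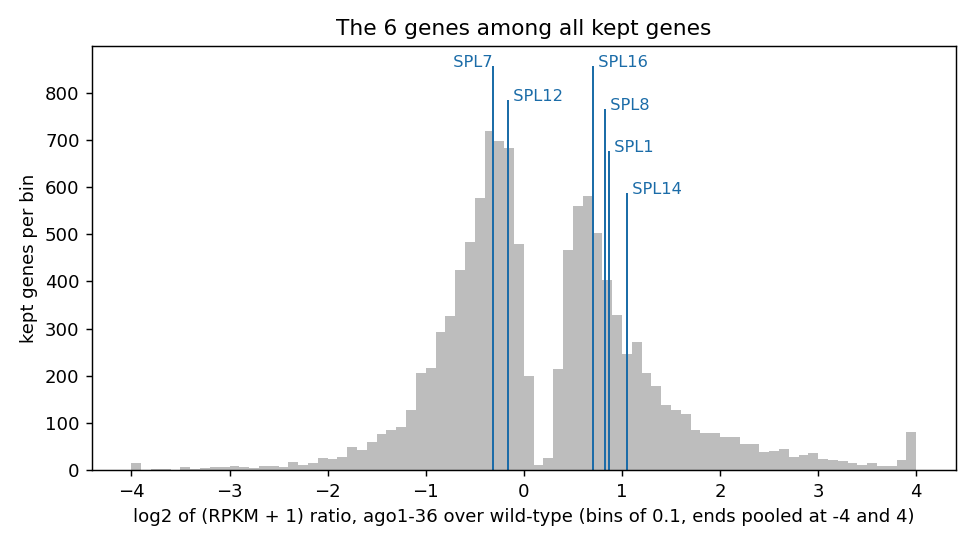
Number of kept genes (vertical axis) by log2 ratio of RPKM plus 1, ago1-36 over wild-type (horizontal axis, bins of 0.1), with the 6 genes as blue lines. SPL12 and SPL7 fall in the left peak and SPL16, SPL8, SPL1 and SPL14 in or beside the right peak, on either side of a gap.

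The shape of the table bears on these ratios. Few kept genes, 38, fell between 0.1 and 0.3 on the log2 scale, while 1417 fell between -0.4 and -0.2 and 1140 between 0.5 and 0.7. How genes were chosen for the table is not given in the sources used here. The sparse range holds 0.18, near which the log2 fold change in the authors' deposited table, with its offset of 0.176621, is 0. Genes with little change by that measure are thus scarce in the table, so shares of kept genes describe the table and not the transcriptome. Listed genes that are absent may be little changed or unexpressed, which cannot be told apart here. In log2 units the authors' deposited table gives fold changes of 0.70 for SPL1, 0.90 for SPL14, 0.63 for SPL16 and 1.11 for SPL8. For SPL7 and SPL12, the authors' deposited table gives -0.53 and -0.35. The GFOLD scores of the authors' deposited table, which shrink a log2 fold change where reads are few, ran from -0.29 for SPL7 to 0.78 for SPL14, and that of SPL8 was 0.41.

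**Figure D3:**
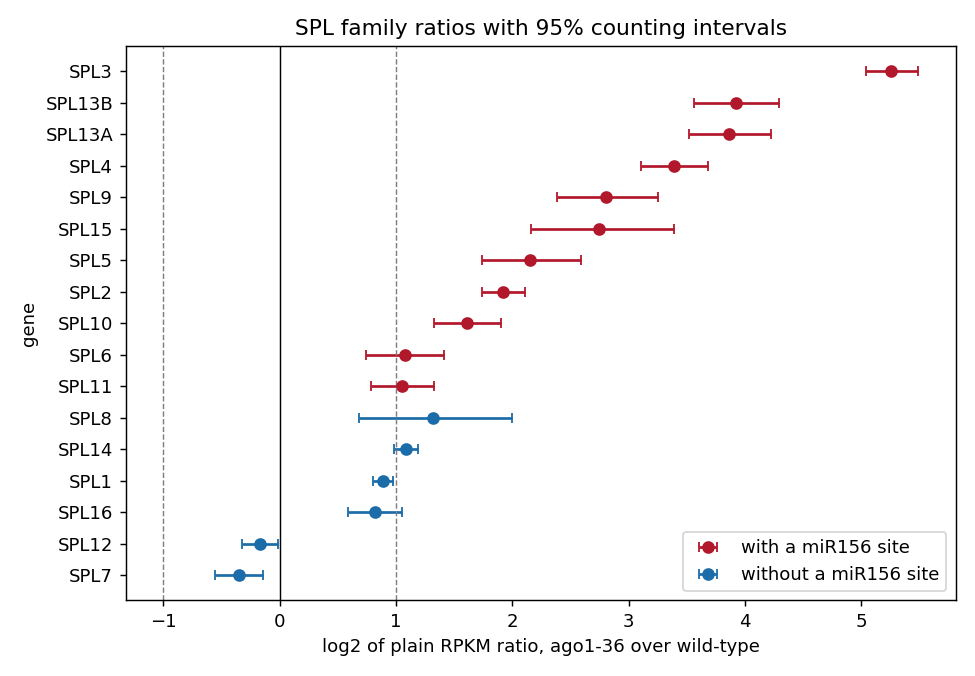
log2 of the plain RPKM ratio, ago1-36 over wild-type (horizontal axis), for 17 SPL genes (vertical axis), with 95% counting intervals; red marks genes with a miR156 site and blue those without, and dashed lines mark 2-fold. All red points lie right of 1, from SPL11 to SPL3, whereas the blue points lie between SPL7, left of 0, and SPL8.

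The relatives with a site gave the contrast within the family. All 11 had a higher RPKM in ago1-36, as did 48.5% of kept genes. With 1 added to each RPKM, 9 of the 11 reached 2-fold, against 19.6% of kept genes in that direction, and their median log2 ratio was 2.12 against 0.77 for the 6 without a site. SPL3, the highest, had 12.7 and 487 RPKM. The lowest, SPL6 (4.36 and 9.17 RPKM) and SPL11 (7.09 and 14.7 RPKM), had log2 ratios of 0.92 and 0.96, beside 1.05 for SPL14 and 0.87 for SPL1. The ranges of the branches thus met: the plain ratio ran from 2.08 to 38.2 with a site and from 0.786 to 2.50 without. With 1 library per genotype no test of the difference between the branches was possible. SPL3 and SPL15 overlap other genes of the table, and reads of the near-identical SPL13A and SPL13B can be split between them, so these 4 values are uncertain. SPL4, SPL5, SPL6, SPL9 and SPL13A overlap genes outside the table on the opposite strand, as SPL8 does, so their reads may be uncertain too.

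**Figure D4:**
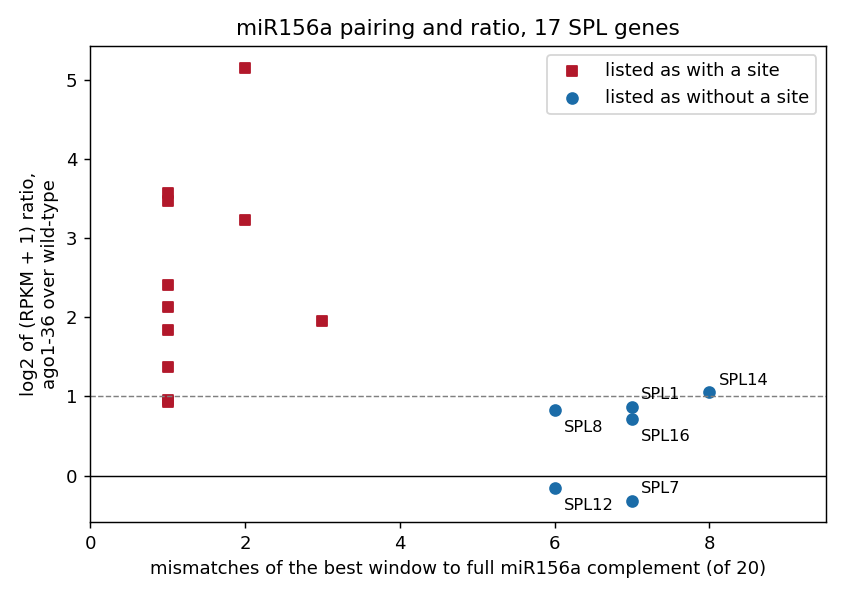
log2 ratio of RPKM plus 1, ago1-36 over wild-type (vertical axis), against the number of mismatches between the best 20-base window of the transcripts and the full miR156a complement (horizontal axis), for 11 SPL genes with a site (red squares) and 6 without (blue circles). The red squares have 1 to 3 mismatches and the blue circles 6 to 8, and SPL14, with the most mismatches, is the highest of the blue circles.

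Summed over the family, the balance between the branches differed between the libraries. The 6 genes without a site summed to 89.1 RPKM in wild-type against 142 in ago1-36, a ratio of 1.60. The 11 with a site summed to 62.5 and 789 RPKM, a ratio of 12.6. Genes without a site thus made up 58.8% of the SPL family's summed RPKM in the wild-type library and 15.3% in the ago1-36 library. SPL3 alone had 487 of the 789 RPKM in ago1-36. Among the 6, pairing with miR156a and ratio showed no common order: SPL14 had the most mismatches and SPL12 and SPL8, with the fewest, lay on opposite sides of 0.

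Most genes listed for their known dependence on SPL7 under copper shortage were lower in the ago1-36 library. Of 10 genes listed for copper uptake and economy, 8 were in the table and kept, 7 had a lower RPKM in ago1-36, and 4 were at least 2-fold lower, against 51.5% and 8.38% of kept genes. Their median log2 ratio was -0.93. COPT2, a high-affinity copper transporter of the root surface, was 4.73-fold lower, at 27.4 RPKM in wild-type against 5.78 in ago1-36 (238 and 50 reads). CCH, a copper chaperone, was 2.77-fold lower, at 79.0 against 28.6 RPKM (768 and 276 reads). ZIP2, a metal transporter, had 15.3 and 5.98 RPKM, and YSL2, which moves metals bound to nicotianamine, had 45.1 and 17.7 RPKM. These 4 genes form the lower end of the list.

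The other 4 copper uptake and economy genes stayed under 2-fold. COPT6 had 41.4 and 26.3 RPKM, COPT1 had 23.1 and 18.8 RPKM, and the metal reductase gene FRO4 had 2.40 and 1.66 RPKM. FSD1, the iron superoxide dismutase that replaces copper enzymes under shortage, went the other way, at 113 RPKM against 146. Its log2 ratio was 0.36, but 0.18 by the log2 fold change and 0.09 by the GFOLD score of the authors' deposited table. For FRO4, at 74 and 51 reads, the 95% counting interval of the ratio includes 1. COPT2 and ZIP2 are known for root expression, and the 3 root hair markers were lower in the same library (28.1 against 3.97 RPKM summed); their part in the copper gene values was not tested. YSL2 overlaps AT5G24390 on the opposite strand, so its reads are uncertain.

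**Figure D5:**
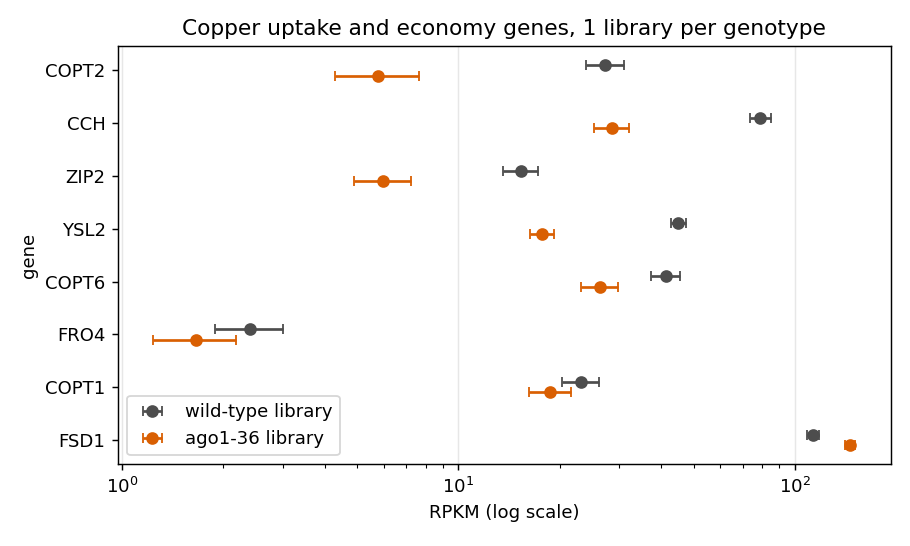
RPKM of the 8 copper uptake and economy genes in the table (vertical axis, ordered by ratio) on a log horizontal axis, in the wild-type library (grey) and the ago1-36 library (orange), with 95% exact Poisson counting intervals. The ago1-36 point lies left of the wild-type point for 7 genes, farthest for COPT2 (27.4 and 5.78 RPKM), and right for FSD1 (113 and 146 RPKM).

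Copper proteins outside that list gave other patterns. Of 12 copper proteins targeted by miR397, miR398, miR408 or miR857, 7 were kept and 4 were at least 2-fold higher, against 19.6% of kept genes. Their median log2 ratio was 2.95, or 1.85 without the filter on low values, with CSD1 at 11.2 and 232 RPKM and CSD2 at 22.4 and 340 RPKM. CSD1 overlaps AT1G08840 on the opposite strand, so its reads may be uncertain. The laccase genes LAC4, the one kept member with a lower RPKM, and LAC7 had 12.1 and 6.55 RPKM and 8.08 and 13.1 RPKM. Of 9 copper proteins without a known microRNA site, 7 were kept and none reached 2-fold in either direction, where 19.6% of kept genes were at least 2-fold higher and 8.38% lower. Their median was -0.26, or -0.47 by the log2 fold change in the authors' deposited table. The plastocyanins PETE1 and PETE2, electron carriers of photosynthesis, had 131 and 75.8 RPKM and 2322 and 1304 RPKM. The copper chaperone genes COX17 and ATX1 had 11.8 and 22.9 RPKM and 72.8 and 94.5 RPKM, and COX17 overlaps AT3G15353 on the opposite strand, so its reads are uncertain.

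Gibberellin genes, which SPL8 is known to affect, lay on both sides of 0. Of 13 listed genes, 7 were in the table and kept. At least 2-fold higher were 2 of the 7 and at least 2-fold lower was 1, against 19.6% and 8.38% of kept genes, which with so few genes is near the background. The median log2 ratio was -0.20, but 0.34 under a filter of 5 RPKM, and no gene was 2-fold higher by the GFOLD score of the authors' deposited table. The receptor gene GID1A stood at 13.9 RPKM in wild-type against 33.9 in ago1-36, and the gibberellin-responsive gene GASA1 had 61.2 and 152 RPKM. GASA6, of the same peptide family, had 33.9 and 11.6 RPKM, and GA2OX1, an enzyme that inactivates gibberellin, had 24 and 5 reads. GASA6 overlaps AT1G74675 on the opposite strand, so its reads may be uncertain. The receptors GID1B (5.55 and 11.1 RPKM) and GID1C (10.8 and 8.87 RPKM) and the repressor gene RGA (36.3 and 31.4 RPKM) complete the kept genes of the list and stayed under 2-fold.

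The GTAC core that SBP domains recognise was looked for in the 300 bases before each annotated gene start. GTAC reads the same on both strands, and 39.7% of 27443 protein-coding genes had at least 1 copy there and 10.2% at least 2. Among the 6 genes without a miR156 site, 5 had at least 1 copy, and SPL1, SPL12 and SPL14 had 2. SPL7 had none in this window. The longer motif TNCGTACAA, searched on both strands, occurs in 0.674% of all windows and in none of the 6. The windows with 2 copies are printed 5′ to 3′ with GTAC in capitals, since they belong to the 3 most abundant members, together with that of YSL2, the copper uptake gene with the most copies (4; 3 or more occur in 2.23% of genes).
SPL1, chr2:19336353-19336652, plus strand: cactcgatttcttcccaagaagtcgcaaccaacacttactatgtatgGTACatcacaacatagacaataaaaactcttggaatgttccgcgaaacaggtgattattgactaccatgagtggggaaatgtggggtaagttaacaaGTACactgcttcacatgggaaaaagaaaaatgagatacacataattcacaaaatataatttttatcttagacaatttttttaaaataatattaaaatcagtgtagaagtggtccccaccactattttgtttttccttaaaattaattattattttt
SPL12, chr3:22169985-22170284, minus strand: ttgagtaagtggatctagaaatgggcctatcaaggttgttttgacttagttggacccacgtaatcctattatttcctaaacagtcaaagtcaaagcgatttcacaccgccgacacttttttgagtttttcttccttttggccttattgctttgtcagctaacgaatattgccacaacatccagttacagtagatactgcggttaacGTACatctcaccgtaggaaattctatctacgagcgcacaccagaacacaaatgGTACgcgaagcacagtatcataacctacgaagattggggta
SPL14, chr1:7324171-7324470, plus strand: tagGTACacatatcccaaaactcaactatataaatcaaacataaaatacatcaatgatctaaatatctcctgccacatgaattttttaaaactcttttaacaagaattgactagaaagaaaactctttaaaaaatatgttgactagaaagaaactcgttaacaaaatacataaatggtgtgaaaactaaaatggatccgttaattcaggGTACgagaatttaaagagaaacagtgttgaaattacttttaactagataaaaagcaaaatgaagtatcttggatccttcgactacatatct
YSL2, chr5:8323595-8323894, plus strand: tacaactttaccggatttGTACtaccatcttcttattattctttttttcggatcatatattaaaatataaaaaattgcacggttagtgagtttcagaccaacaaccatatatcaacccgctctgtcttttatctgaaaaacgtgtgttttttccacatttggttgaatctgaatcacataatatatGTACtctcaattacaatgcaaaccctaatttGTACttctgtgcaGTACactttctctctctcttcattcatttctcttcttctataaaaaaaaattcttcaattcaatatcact
Windows with 2 copies thus occurred in genes with higher RPKM in ago1-36 (SPL1 and SPL14) and in one with lower RPKM (SPL12). Of the 8 copper uptake and economy genes, 4 had at least 1 copy, beside 39.7% of all protein-coding genes. COPT2, the lowest of the 8 by ratio, had none, and neither had COPT1, COPT6 and FRO4. A match of these letters describes the window and is not a measured binding site.

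Genes with the most similar pair of values were found by the distance of log2 of RPKM plus 1 over the 2 libraries, which is a weak measure with so few points. Closest to SPL12 was AK-LYS1, an aspartate kinase gene of lysine synthesis (17.1 and 15.3 RPKM), and closest to SPL7 was BPC2, a GAGA-binding factor gene (11.2 and 8.67 RPKM). SPL8 lay closest to UVR3, a photolyase gene (1.05 and 2.59 RPKM), and SPL16 to UGT71C5, a glucosyltransferase gene (4.86 and 8.60 RPKM). SPL1 lay closest to AT1G80360 (36.0 and 65.3 RPKM) and SPL14 to AT1G73480 (20.1 and 40.9 RPKM). Between 10 genes (SPL1 and SPL14) and 49 genes (SPL7) lay within 0.1 of a member, so none of these matches is particular.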

How the data were processed

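Total RNA of 12-day-old seedlings was extracted with TRIzol and turned into SMART libraries, 1 per genotype, per the labels' protocols. The submitters' processing notes name TopHat2 2.0.11 and the TAIR10 build. How reads were counted, on which annotation and whether by strand, is not given in the sources used here.

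The deposited table gives, per the file headers, RPKM in each library, a log2 fold change (ago1-36 over wild-type) and a GFOLD score for every gene. Of 11957 gene lines, 291 repeats were dropped, and 2 fragments without a gene name were not used. Names, gene models and sequences came from RefSeq (TAIR10.1), where 11556 identifiers matched. The table has no coordinates.

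Whole reads were solved from RPKM and log2 fold change as pairs of whole numbers that match both columns and give a whole gene length. A single pair was found for 11322 genes, and the steps were tested on simulated data. Intervals are exact at the 95% level (Clopper-Pearson for ratios, Poisson for levels). Reads carry no molecular identifiers and may be copies of 1 molecule, so intervals cover counting error only. Library totals were set from solved reads, RPKM and annotated exon lengths, at the total most frequent among genes (587 of 6755). The pseudocount was 1 RPKM.

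Named were all 6 members, AGO1, the highest and lowest SPL genes with a site and those under 2-fold, and all listed copper uptake genes. Also named were the 2 highest and 2 lowest kept members of each other list (marker lists are printed as sums). By pattern the 2 closest genes were found, of which the nearest is printed. The members follow from a list of identifiers that uses no measured value, but members and lists were chosen with earlier results of these data known. The alternatives were other pseudocounts, filters and scalings, both deposited measures, and leaving out overlapping genes. The last left out only genes of the lists that overlap another gene of the table, and none of the 6 members is among these. SPL8, which overlaps a gene outside the table, stayed in. The plain ratio was added after seeing the data, as was the choice of the printed promoter windows. Genes not in the table were not analysed here, and no column of sample values was left unused. Python 3.11.15, scipy 1.17.1 and Biopython 1.88 were used.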

Additional observations from a re-analysis of the deposited data

How the results depend on the processing

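With 1 library per genotype, no library could be left out. No paired analysis was possible because each genotype has 1 library and no test was made. The 6 genes without a miR156 site kept their direction under each of the 11 alternatives that gave a value. For SPL8, which falls under a filter of 5 RPKM, these were 10. Only the scalings and both deposited measures could have reversed a direction, since the other alternatives leave it fixed by construction. The median log2 ratio of the 6 genes lay between 0.39 and 0.86. The number at least 2-fold higher was 1 and became 2 with pseudocounts of 0.1 and 0.5, with libraries scaled to a sum of 1000000 and by the plain ratio. These settings all reduce or remove the weight of the added constant. The number was 0 by the GFOLD score. It was also 1 by the log2 fold change in the authors' deposited table, but for SPL8 (1.11) in place of SPL14. The counts over all 11373 kept genes moved too. At the settings used above 2228 were at least 2-fold higher, and 2675 and 2473 with pseudocounts of 0.1 and 0.5. The count was 2507 with libraries scaled to a sum of 1000000, 2249 by that log2 fold change and 1391 by the GFOLD score. By the log2 fold change in the authors' deposited table, values moved by more than the tolerance used, 0.5 of the width of the log2 counting interval, to 0.70 (SPL1), 0.90 (SPL14), -0.35 (SPL12) and -0.53 (SPL7, still inside the counting interval of its plain ratio), and by the GFOLD score of the authors' deposited table to 0.60 (SPL1), 0.78 (SPL14) and 0.37 (SPL16). By construction, that log2 fold change lies below the log2 ratio of reads plus 1 by a constant offset of 0.176621, which enters each of its values above. The median of kept genes on that measure is -0.23, beside -0.11 when libraries are scaled to a sum that omits organelle genes and the 50 highest genes.

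The median of SPL genes with a site was 2.75 by the plain ratio. That of copper uptake genes was -1.23 under a filter of 5 RPKM and -0.63 without overlapping genes, which drops YSL2. The median of microRNA-targeted copper proteins was 1.85 without a filter and 2.52 by GFOLD score, with 1 lower gene by the log2 fold change in the authors' deposited table. By that measure copper proteins without a site had a median of -0.47 and 1 lower gene, and gibberellin genes a median of -0.39. Gibberellin genes turned to 0.34 under a filter of 5 RPKM. Their lower genes were 2 with either pseudocount, with both scalings to a sum, by the log2 fold change in the authors' deposited table and by the plain ratio, and their higher genes 0 by GFOLD score. Except where construction shows it, the cause was not tested. SPL8, at 29 and 72 reads, is the member limited most by depth.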
